A study of Mus musculus with 108 samples.

Results

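Single mouse eggs at MII were compared between 15 eggs in which Exosc10 was knocked out in the oocyte (cKO) and 8 control eggs, using the libraries made from polyadenylated RNA. These 23 libraries were picked by the stage, genotype, female and egg numbers in their titles, from 108 samples in all. MII is metaphase of the second meiotic division, the arrest of a mature, unfertilised egg, and these eggs were dissected from oviducts. The cKO eggs came from females V841 (2 eggs), V842 (2 eggs) and V897 (11 eggs), and the control eggs from females V836 (2 eggs), V853 (4 eggs) and V896 (2 eggs). The Cre driver, the strain, the age of the females, the genotype of the controls beyond that word and any hormone treatment are not given in the sources used here. Each female had 1 genotype, so counts were summed per female and the tests compared 3 with 3 females. Other libraries of the series enter only as context: polyA libraries at GV (germinal vesicle, before meiotic resumption) and GV3h (3 hours in culture), and RiboMinus libraries, which were made without selection for poly(A).

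EXOSC10 is a 3′ to 5′ ribonuclease that joins the RNA exosome in the nucleus, where the complex trims and degrades small nuclear and nucleolar RNA precursors, enhancer and promoter RNAs and faulty transcripts. Full-grown oocytes and eggs make almost no new RNA, so their transcripts change through degradation of stored messages and through lengthening or shortening of poly(A) tails. A library selected on poly(A) sees both the amount of a transcript and the presence of its tail, and these cannot be told apart within the MII eggs alone. Spike-in counts were not used here, so each value is relative to the other genes of its library (CPM, counts scaled to a common library size with edgeR's TMM factors).

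The genotype labels matched the targeted gene. Exosc10 (ENSMUSG00000017264, chr4:148558429-148582401, plus strand, GRCm38) lay at 0 to 1.81 CPM (median 0.117) in cKO eggs and at 38.2 to 141 CPM (median 77.6) in control eggs, and no cKO egg reached any control egg. Total counts per egg were 6413351 to 8735914 in cKO and 6863768 to 8459101 in control libraries. Genes with at least 1 count numbered 16383 to 18025 in cKO eggs and 13699 to 16389 in control eggs, with female means of 17389 ± 178 and 15525 ± 452 (SD, n = 3 females each, exact permutation p = 0.1, the smallest that 3 against 3 allows, 0.175 after adjustment over 7 such measures). The lowest value belonged to egg 2 of control female V836. On the first principal component, with 36.4% of the variance of 7801 genes, cKO eggs lay between 7.41 and 29.3 and control eggs between −45.3 and −30.9. Egg 2 of V836 stood apart on the second component (9.77% of the variance), at 59.9, against −18.5 to 7.95 for the other eggs.

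Markers of other cell types were read in every egg. Of 18 granulosa and cumulus genes, Amhr2 was at 0 in all 23 eggs and the receptor gene Fshr had a count in 6 of 15 cKO eggs and in 0 of 8 control eggs. Members went both ways: Inhba had a count in 1 of 15 cKO and 2 of 8 control eggs, and Has2 in 5 and 3. Their summed level was 86.5 to 134.5 CPM in cKO and 88.4 to 138.5 CPM in control eggs, most of it Cyp19a1 (aromatase), with medians of 61.0 and 78.8 CPM. The 12 oviduct and blood markers summed to 1.11 to 18.4 CPM in cKO and 0.26 to 5.26 CPM in control eggs. The oviductal glycoprotein gene Ovgp1, with counts in 11 of 15 cKO eggs and 1 of 8 control eggs, was the 1 called gene among 8 tested members of both lists. The call of Ovgp1 (0.227 without V841) ended when single females were left out, with the largest adjusted p given here. The part of carried-over RNA in the results was not tested. The 12 oocyte markers held 31867 to 38302 CPM in cKO and 28547 to 33922 CPM in control eggs.

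With edgeR's quasi-likelihood test on female sums, 2522 of 13813 tested genes (18.3%) were called at an adjusted p under 0.05, 1235 higher (8.94%) and 1287 lower (9.32%) in cKO eggs. Rises were the larger changes: 838 genes (6.07%) rose and 563 (4.08%) fell at least 2-fold (10.1% in either direction), and the median called rise was 1.37 against a median called fall of −0.92 on the log2 scale. Falls lay at higher CPM, a level not corrected for transcript length. The median average level was 4.08 log2 CPM for called rises, 5.77 for called falls and 3.51 for all tested genes, and among the 4468 genes of at least 5 log2 CPM 466 (10.4%) rose and 798 (17.9%) fell. For lists of abundant genes these shares are the nearer comparison. All 15 cKO eggs lay above all 8 control eggs for 258 genes (1.87%) and below them for 334 (2.42%), 4.29% in either direction. With library totals in place of TMM factors, 64.6% of 2471 calls were rises against 49.0% of the calls above, and the median log2 fold change of all genes moved from 0.02 to 0.13, so directions below are relative to the TMM median. Without V841, V842, V897 or V853 the calls numbered 1450, 1257, 1393 and 1641, and of the 2522 genes 1372, 1207, 1306 and 1476 remained called with the same sign.

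**Figure D1:**
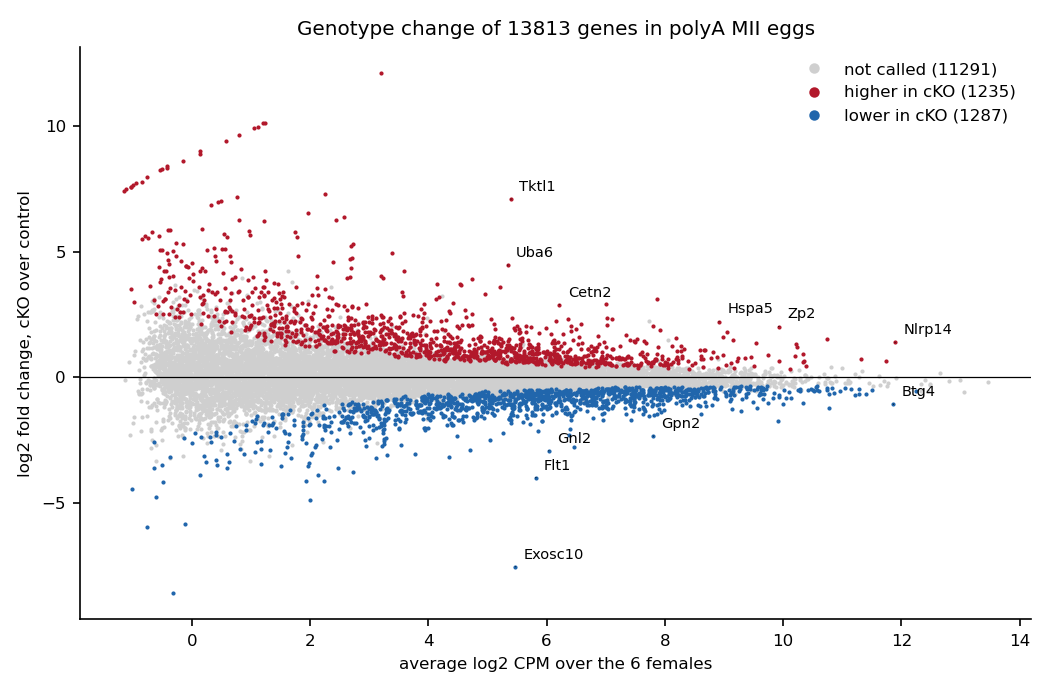
Log2 fold change of cKO over control (y axis) against the average log2 CPM of the 6 females (x axis) for the 13813 genes tested in polyA MII eggs. Red and blue points are the 1235 genes called higher and the 1287 called lower; rises reach larger values at low levels, and falls extend along the abundant end of the axis.

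Among abundant genes whose egg ranges did not overlap, 11 of the largest rises are described. Uba6 (chr5:86109287-86172803), an enzyme that activates ubiquitin, was measured at 34.6 to 103 CPM (median 55.6) in cKO eggs and at 0.3 to 11.9 CPM (median 3.08) in control eggs. The lowest cKO egg, at 34.6 CPM, lay above the highest control egg, at 11.9 CPM. Its log2 fold change was 4.46 ± 0.41 (SE, adjusted p = 5.51e-04).

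Calm2 (chr17:87433412-87446935), which encodes calmodulin, the sensor of the calcium signal at fertilisation, lay at 114 to 324 CPM (median 268) in cKO eggs and 31.7 to 71 CPM (median 42.3) in control eggs. The log2 fold change was 2.30 ± 0.17 (SE, adjusted p = 1.93e-04), and the lowest cKO egg stood above the highest control egg. Cetn2 (chrX:72913532-72918411) encodes centrin 2, a calmodulin relative found at centrioles and in DNA repair complexes. It was at 63.3 to 244 CPM (median 143) in cKO and 13.1 to 22.5 CPM (median 18.6) in control eggs, with a log2 fold change of 2.88 ± 0.16 (SE, adjusted p = 4.90e-05). Hspa5 (chr2:34771970-34777547), the chaperone BiP of the endoplasmic reticulum, was at 470.1 to 1056 CPM (median 795) in cKO and 105 to 219 CPM (median 170.1) in control eggs. It had the highest average CPM of these rises and a log2 fold change of 2.21 ± 0.12 (SE, adjusted p = 4.90e-05), and Ddost, a subunit of the oligosaccharyltransferase of the same organelle, rose by 2.31 ± 0.24 (SE, adjusted p = 9.95e-04). Tm2d1 (chr4:98355370-98383306), a membrane protein gene, was at 139.9 to 302 CPM (median 208) in cKO and 25.8 to 55.4 CPM (median 45.3) in control eggs, a log2 fold change of 2.34 ± 0.12 (SE, adjusted p = 4.90e-05). The remaining rises were the mitochondrial assembly factor gene Cox14 (2.35), the RAF kinase inhibitor gene Pebp1 (2.31), the ribosomal RNA processing gene Imp3 (2.22) and the meiotic crossover gene Ccnb1ip1 (3.60), with adjusted p-values between 0.00219 and 0.00427.

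Tktl1 (chrX:74177259-74208500), a transketolase-like gene on the X chromosome, had the largest fitted rise of this set and the least even control values. Its CPM was 4.99 to 183 in cKO eggs and 0 in 6 of 8 control eggs, with the other control eggs, both of V853, at up to 3.94. The fitted log2 fold change of 7.09 ± 0.90 (SE, adjusted p = 0.00195) is therefore imprecise. Trap1a, a tumour antigen gene of the X chromosome that lies outside the rule for named genes and was chosen because of earlier results of these data, had counts in 15 of 15 cKO eggs and in 0 of 8 control eggs, at least 278-fold above a floor of 3 counts over all control eggs. It overlaps a gene on the opposite strand.

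Among the 12 largest falls, the one after Exosc10 was Flt1 (chr5:147561604-147726011), which encodes a receptor for vascular endothelial growth factor. It lay at 0.938 to 11.8 CPM (median 8.17) in cKO eggs and at 60.2 to 172 CPM (median 85.2) in control eggs, a log2 fold change of −4.01 ± 0.52 (SE, adjusted p = 0.00199). Gnl2 (chr4:125016585-125055380), a nucleolar GTPase of large ribosomal subunit assembly, was at 3.09 to 29.2 CPM (median 12.8) in cKO and 87.4 to 145 CPM (median 113) in control eggs, with −2.94 ± 0.30 (SE, adjusted p = 7.78e-04). Every one of these cKO eggs was below the lowest control egg. Gpn2 (chr4:133584362-133591735), a GTPase gene linked to RNA polymerase assembly, had the highest average CPM of the set, at 27.3 to 138 CPM (median 74.8) in cKO and 292 to 549.8 CPM (median 377) in control eggs. Its log2 fold change was −2.35 ± 0.13 (SE, adjusted p = 4.90e-05).

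The other falls included genes of signalling and cell polarity. Trib2, a pseudokinase gene, had a log2 fold change of −2.49 ± 0.24 (SE, adjusted p = 6.55e-04), the polarity gene Pard6g of −2.31 ± 0.23 (SE, adjusted p = 7.08e-04), and Fzd3, a Wnt receptor gene, of −2.13 ± 0.24 (SE, adjusted p = 0.00133). The chemokine receptor gene Cxcr3 changed by −1.88 ± 0.31 (SE, adjusted p = 0.00482) and the potassium channel gene Kcnh3 by −1.77 ± 0.25 (SE, adjusted p = 0.00285). Daw1, a factor for assembly of ciliary dynein, changed by −2.22 ± 0.23 (SE, adjusted p = 9.95e-04), and Nsmce1, a subunit of the SMC5/6 DNA repair complex, by −2.07 ± 0.25 (SE, adjusted p = 0.00158). Nsmce1 was at 19.9 to 51 CPM (median 36) in cKO and 86.2 to 278 CPM (median 119.5) in control eggs, where egg 2 of V836 was the highest. AC158982.1 completed the set with −1.76 ± 0.20 (SE, adjusted p = 0.00139). Gnl2, Pard6g, Fzd3, Kcnh3, AC158982.1 and Exosc10 overlap a gene on the opposite strand, and no strand setting is given in the sources used here. Of the genes named below the same holds for Gm5065, Exosc3, Mtrex, Btg4, Tut7, Cpeb1, Ddx6, Patl2, Cdc25b, Plk1, Fzr1, Ube2c, Cdca8, Prc1, Cd9, Dnmt3a, Ddit3, Ppp1r15a, Psmd5, Psma5, Psmd9, Psma2, Gas5, Mdm4, Dusp1, Pde4d, Rab5a, Atp2a2, Ndufa2, Hsp90b1, Cnot2, Cnot7, Dcp1a, Gpr3 and Rps2, so reads of both strands cannot be told apart in them.

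Below, Astl, Atp2a2, Ndufa2, Hsp90b1, Calr, Cnot2, Cnot7, Dcp1a, Cox6a1, Gpr3, Rps2, Rpl34, Mt1, Rab5a and Rab5b lie outside the rule for named genes and were chosen after their values were seen.

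Genes known only by clone names followed the same terms. E330017A01Rik rose by 3.10, Gm31579 by 2.12 and 1110059E24Rik by 1.96 on the log2 scale, while Gm6201 (−2.79), Gm15476 (−1.82) and Gm5065 (−1.70) were lower, with adjusted p-values between 1.84e-04 and 0.00271. All 23 genes with symbols and all 6 clone-named genes above kept their call and sign in all 17 alternative fits.

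**Figure D2:**
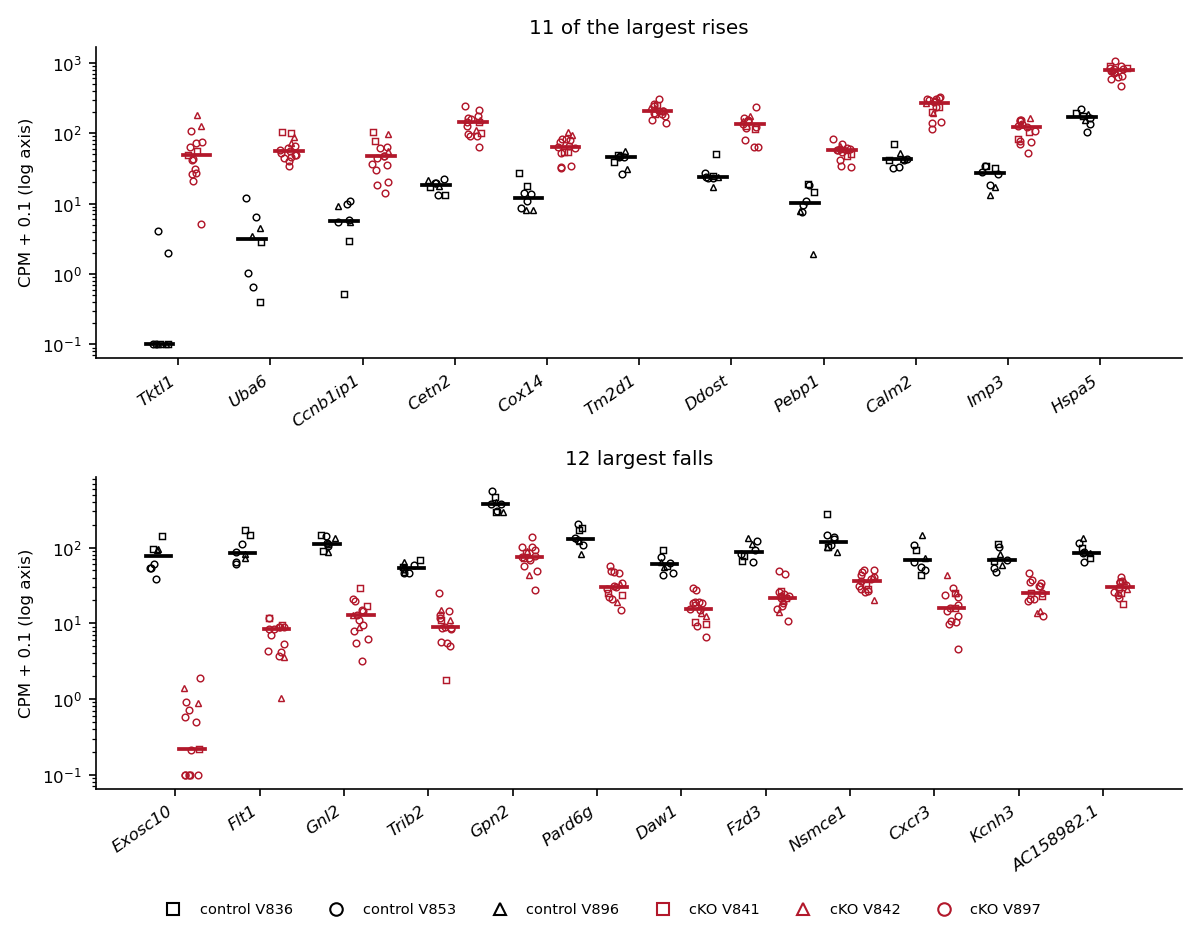
CPM plus 0.1 on a log axis in each of the 23 polyA MII eggs for 11 of the largest rises (top) and the 12 largest falls (bottom). Black symbols are control eggs and red symbols cKO eggs, their shapes mark the female and bars are medians; in each gene the 15 cKO eggs sit on one side of the 8 control eggs.

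For 9 of these 11 rises the genotype difference was larger at MII than before maturation by the test of that difference. The stage difference, the MII log2 fold change less the mean of those at GV and GV3h, was tested over 16 polyA females and called for 1617 of 19242 genes (8.4%), 1017 more positive (5.29%) and 600 more negative (3.12%) at MII. With library totals 48.5% of 1531 calls were more positive against 62.9% here, the median over all genes moving from 0.13 to 0.02. Among the 1235 called rises 478 (38.7%) also had a more positive stage difference, and among the 1287 called falls 166 (12.9%) had a more negative one. Both fits use the MII eggs, so these counts are no separate evidence. Without V842 the stage difference was called for 997 genes.

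Cetn2 shows the form this took. On a scale common to all polyA libraries its mean was 107 ± 32.5 CPM (SD, n = 7) in control and 110.1 ± 18.9 (n = 15) in cKO oocytes at GV, and 21.5 ± 4.23 (n = 8) and 171 ± 60.5 (n = 15) at MII. The stage difference was 2.87 (SE 0.27, edgeR adjusted p = 6.05e-05). Calm2 had 283 ± 59.1 and 281 ± 61.3 CPM at GV against 52.8 ± 14.1 and 297 ± 83.8 CPM at MII. Uba6 stood at 50.1 ± 31.7 and 80.9 ± 20.4 CPM at GV and at 4.53 ± 4.61 and 75.3 ± 26 CPM at MII. In these genes the control level at MII was the low point of the 3 stages, and the cKO level at MII lay near or above its own level at GV. In Tm2d1 the cKO mean rose more than in these genes, from 89.4 ± 16.9 CPM at GV to 259.7 ± 51.5 CPM at MII. The control mean was 118 ± 25 and then 50.1 ± 11.8 CPM.

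Among the falls, Flt1, Trib2, Pard6g and Cxcr3 were also lower at the earlier stages, with log2 fold changes of −3.80, −2.83, −2.64 and −2.02 at GV and of −4.92, −3.39, −3.17 and −2.55 at GV3h, and the stage differences of these 4 genes were not called (adjusted p between 0.558 and 0.719). Gpn2, Daw1, Nsmce1 and Kcnh3 fell further at MII, with stage differences of −1.28, −1.73, −1.83 and −1.84 (adjusted p between 0.00483 and 0.00712). At GV the Nsmce1 and Kcnh3 values were −0.19 and 0.10.

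**Figure D3:**
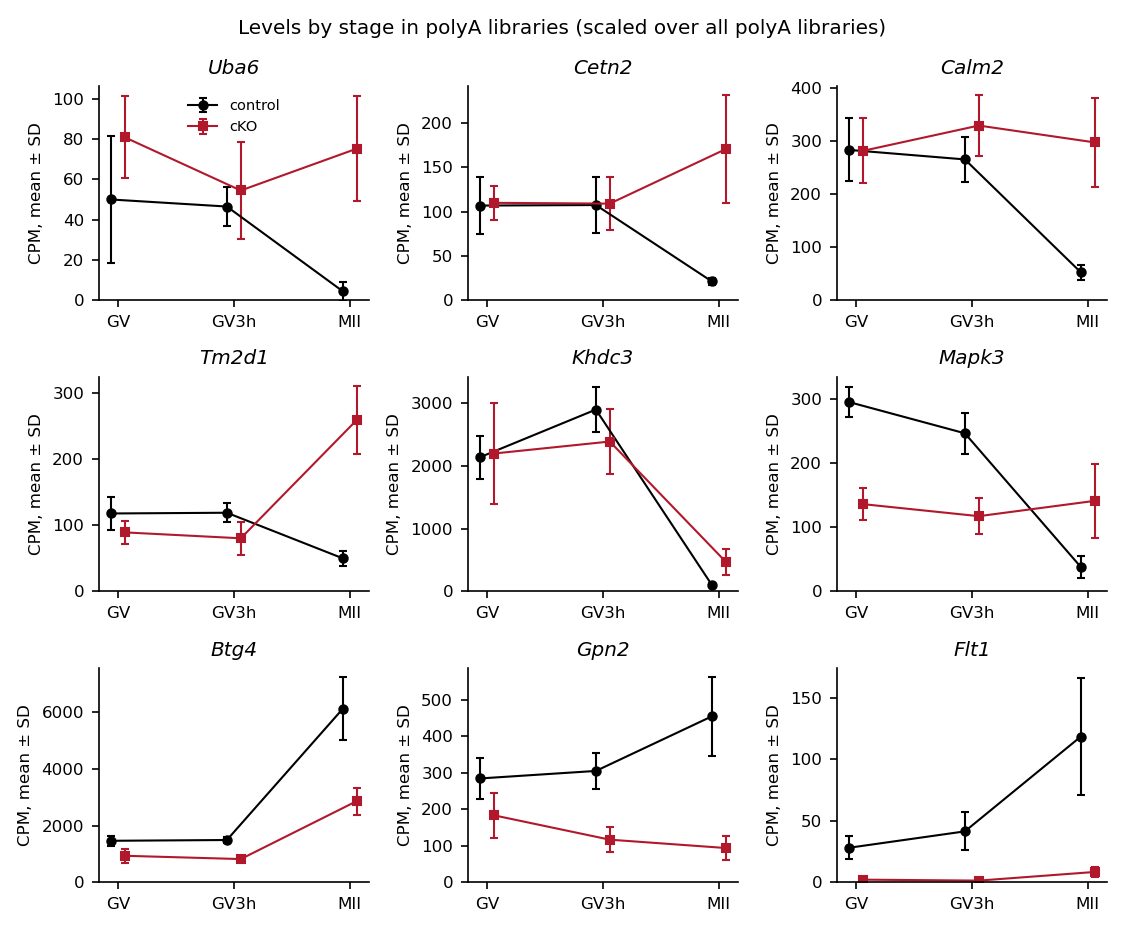
Mean CPM ± SD (y axis) at GV, GV3h and MII in polyA libraries of control (black) and cKO (red) oocytes for 9 genes, on a scale common to all 64 polyA libraries, with 7 and 15, 8 and 11, and 8 and 15 libraries at the 3 stages. Uba6, Cetn2, Calm2 and Khdc3 separate by genotype at MII, Flt1 and Btg4 are lower in cKO oocytes at each stage.

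Over all called genes the direction was mostly shared with the earlier stages, in libraries from other females. Of the called rises 904 of 1221 (74.0%) were also positive at GV and 944 of 1220 (77.4%) at GV3h, and of the called falls 1114 of 1284 (86.8%) were negative at GV and 1087 of 1278 (85.1%) at GV3h. Among all tested genes 65.9% had the same sign at GV and 66.5% at GV3h. The sizes were smaller there: called rises had a median of 0.39 at GV and 0.43 at GV3h, and called falls −0.59 and −0.71. Female sums called 1 of 18004 genes (0.00555%) at GV, with 2 against 2 females, and 6681 of 16844 (39.7%) at GV3h.

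RiboMinus MII eggs gave a further set of values. Here 1 female gave all 3 control eggs. Her own traits and the genotype cannot be told apart, and no test was made. Positive values were found for 801 of 1214 called rises (66.0%) and negative values for 892 of 1267 called falls (70.4%), against 59.2% of all genes with the same sign. The falls of Exosc10, Flt1 and Gnl2 were also seen there, at −5.66, −3.70 and −3.75. The rise of Tktl1 was as well, at 6.30. Cetn2 stood at −1.18, Calm2 at −0.71, Tm2d1 at −0.53 and Uba6 at −0.10 in libraries made without poly(A) selection, and Gpn2 and Nsmce1 at 0.54 and 0.19.

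How genes behave during normal maturation was taken from RiboMinus control oocytes, which share no library with the polyA eggs. Transcripts that decreased from GV to MII there were 987 of the tested genes, of which 83 (8.41%) rose and 101 (10.2%) fell in polyA cKO eggs, with a median of 0.01. Transcripts that increased numbered 1038, of which 186 (17.9%) rose and 41 (3.95%) fell, with a median of 0.32. The 413 genes too low to be tested in the RiboMinus controls held 68 rises (16.5%) and 9 falls (2.18%), with a median of 0.65. Genes of this class that passed the polyA filter only through cKO counts had to rise, so its counts describe the libraries and no more. The 4814 genes between these classes and the steady ones held 404 rises (8.39%) and 415 falls (8.62%), with a median of 0.03. The 6561 steady transcripts held 494 rises (7.53%) and 721 falls (11%), with a median of −0.03. Since 1 female gave the 3 RiboMinus control eggs at MII, her traits and the stage cannot be told apart in these classes.

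Of 10 tested core subunits Exosc10 was the 1 called (10.0% lower, 0% higher, against 9.32% and 8.94% of all genes), and Exosc3, the member with the highest CPM, was at 0.30 (adjusted p = 0.144). Without V836, 1 core gene was also called higher. Among 17 cofactors 3 rose and 1 fell (17.6% and 5.88%, against 8.94% and 9.32% of all genes), with 2 and 0 without V841, V897, V836 or V896, 1 and 0 without V842, 3 and 1 without V853 and 3 and 0 with library totals. Rbm7, an RNA-binding subunit of the nuclear exosome targeting complex, rose by 0.84 ± 0.13 (SE, adjusted p = 0.00393), and Zcchc7, of the TRAMP complex that adds short tails to exosome targets, by 0.86 (adjusted p = 0.0149). Zfc3h1, of the connection from poly(A) tails to the exosome, was higher at 0.66 (adjusted p = 0.0261), and the helicase gene Mtrex lower at −0.55 (adjusted p = 0.0493). The calls of Zcchc7 (0.0596 without V842), Zfc3h1 (0.0925 without V896) and Mtrex (0.166 without V897) ended when single females were left out, with the largest adjusted p given here. Without V896 and V897 together 0 cofactors were called, and Rbm7 lost its call as well. Nonsense-mediated decay genes had 4 rises and 2 falls of 15 tested (26.7% and 13.3%, against 8.94% and 9.32% of all genes). Rises and falls numbered 3 and 2 without V841, V842 or V896, 2 and 2 without V897 or V853 and 4 and 3 without V836. Smg5, which helps recruit decay enzymes, had the largest rise, 3.23 (adjusted p = 0.00382), and the 2 falls were Upf3b, −1.04 (adjusted p = 0.0025), and Magohb, −1.08 (adjusted p = 0.00492), both tied to the exon junction complex.

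Among genes that remove poly(A) tails and caps, 6 of 30 tested fell (20%, against 9.32% of all genes and 17.9% of genes of at least 5 log2 CPM) and 0 rose, and the median of the list was −0.01, or 0.10 with library totals. Btg4 (chr9:51060901-51119875), the adaptor that brings the CCR4-NOT deadenylase to maternal messages in the maturing egg, lay at 1608 to 2845 CPM (median 2426) in cKO eggs and 3968 to 6500 CPM (median 5098) in control eggs. Its log2 fold change was −1.08 ± 0.12 (SE, adjusted p = 0.00133), and the highest cKO egg was below the lowest control egg. Cnot7, a catalytic subunit of that deadenylase, was at 609.8 to 895 CPM (median 767) and 1062 to 1858 CPM (median 1384), with −0.83 ± 0.13 (SE, adjusted p = 0.00429). Pan3, of the PAN2-PAN3 deadenylase, fell by 0.89 ± 0.16 on the log2 scale (SE, adjusted p = 0.00728), and Tut7, a uridylyl transferase that marks short-tailed messages, was lower at −1.02 (adjusted p = 0.0212). Cnot2 and Dcp1a were the other 2 falls, at −0.48 (adjusted p = 0.04995) and −0.35 (adjusted p = 0.0304). The calls of Tut7 (0.0844 without V897), Cnot2 (0.155 without V897) and Dcp1a (0.0879 without V841) ended when single females were left out, with the largest adjusted p given here. Falls in the list numbered 3, 4 and 4 without cKO females V841, V842 and V897 and 6, 3 and 4 without control females V836, V853 and V896, 4 with library totals, and 8 beside 4 rises with each egg as a replicate. In RiboMinus MII eggs Btg4, Pan3 and Cnot7 stood at 0.07, 0.16 and −0.28.

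Regulators of stored messages had 5 rises and 5 falls of 29 tested (17.2% and 17.2%, against 8.94% and 9.32% of all genes, or 10.4% and 17.9% of genes of at least 5 log2 CPM). In other fits, rises and falls numbered 2 and 3 without V841, 4 and 2 without V842, 3 and 2 without V897 or V896, 5 and 6 without V836, 3 and 3 without V853 and 5 and 3 with library totals. Cpeb1, which binds the cytoplasmic polyadenylation element, was at 474 to 879.7 CPM (median 628) in cKO and 227 to 356 CPM (median 282) in control eggs, a log2 fold change of 1.02 ± 0.16 (SE, adjusted p = 0.00344). Dazl, an RNA-binding translational activator of the egg, was higher at 0.71 (adjusted p = 0.0152), Ybx2, which coats stored messages, at 1.42 (adjusted p = 0.00924), and the poly(A)-binding protein gene Pabpc1 at 1.84 (adjusted p = 0.0151). Lsm14b, a component of stored ribonucleoprotein particles, fell from 805 to 1261 CPM (median 996) in control to 472 to 724 CPM (median 616) in cKO eggs, with −0.87 ± 0.13 (SE, adjusted p = 0.00311). Ddx6, a helicase of the same particles, fell by 1.49 ± 0.28 on the log2 scale (SE, adjusted p = 0.00802), and Patl2, whose protein binds stored messages in oocytes, was lower at −0.94 (adjusted p = 0.0295). The calls of Dazl (0.0593 without V853), Pabpc1 (0.0606 without V841) and Patl2 (0.105 without V897) ended when single females were left out, with the largest adjusted p given here. The stage difference was positive for Cpeb1 (1.43, adjusted p = 8.37e-04) and negative for Ddx6 (−2.93, adjusted p = 0.00315), which was higher in cKO oocytes at GV (1.36) and GV3h (1.56).

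Proteins of the egg surface and coat were among the groups with the largest share of rises. Of 14 tested genes for the zona pellucida, sperm binding and cortical granules 6 rose (42.9%, against 8.94% of all genes) and 1 fell (7.14%, against 9.32%), with a median of 0.58. Zp2, the zona glycoprotein that sperm bind and that is cleaved after fertilisation, was at 520 to 2061 CPM (median 1557) in cKO and 261 to 603 CPM (median 333) in control eggs, and the ranges overlapped. Its log2 fold change was 2.02 ± 0.16 (SE, adjusted p = 3.26e-04). Zp3, another zona glycoprotein, changed by 1.55 ± 0.28 (SE, adjusted p = 0.00678), and Cd9, a membrane protein needed for sperm fusion, by 1.79 ± 0.26 (SE, adjusted p = 0.00292). Astl, the cortical granule protease that cleaves ZP2, rose by 0.86 ± 0.14 (SE, adjusted p = 0.00439), and Rab27a, a small GTPase of cortical granules, fell by 0.74 ± 0.14 on the log2 scale (SE, adjusted p = 0.00846). Zp2 means were 3177 ± 652 CPM in control and 4427 ± 1432 CPM in cKO oocytes at GV (SD, n = 7 and 15), and 436 ± 130.4 and 1740 ± 641 CPM at MII (n = 8 and 15). Refits gave rises and falls of 5 and 1 without V841 or V897, 4 and 1 without V842 or V896, 5 and 2 without V836 and 4 and 2 without V853. In RiboMinus MII eggs the list's median was −0.22.

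The subcortical maternal complex, a protein assembly under the egg membrane that embryos need for the first cleavages, had 6 rises and 1 fall of 12 tested genes (50% and 8.33%, against 8.94% and 9.32% of all genes). Nlrp14 and Nlrp5 encode proteins of the NLR family that oocytes make. Nlrp14 lay at 3502 to 6698 CPM (median 5598) in cKO and 1609 to 2547 CPM (median 2022) in control eggs, with 1.38 ± 0.10 (SE, adjusted p = 1.70e-04), and Nlrp5 at 1474 to 2021 CPM (median 1697) and 526 to 835 CPM (median 740.3), with 1.19 ± 0.10 (SE, adjusted p = 3.26e-04). Neither gene's egg ranges overlapped. Khdc3 rose by 2.04 ± 0.23 (SE, adjusted p = 0.00145). Zbed3, the member with the highest CPM, was not called at −0.26 (adjusted p = 0.0949). The stage differences of Nlrp14, Nlrp5 and Khdc3 were 1.33, 1.48 and 2.18 (adjusted p = 0.00121, 0.00561 and 8.28e-04), and their values in RiboMinus MII eggs −0.78, −1.48 and 0.45. Rises and falls in the list numbered 6 and 0 without V841 or V836, 3 and 0 without V842, 4 and 0 without V897 or V853, 4 and 1 without V896 and 6 and 0 with library totals.

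Calcium signalling, which starts development at fertilisation, had 6 rises and 1 fall of 20 tested genes (30% and 5%, against 8.94% and 9.32% of all genes). Beside Calm2 and Hspa5, the rises held Atp2a2, the calcium pump of the endoplasmic reticulum at 0.81 ± 0.10 (SE, adjusted p = 0.00199), and Calm3 at 1.67 (adjusted p = 0.0107). Atp2b1, the pump of the cell membrane, fell by 0.57 ± 0.11 on the log2 scale (SE, adjusted p = 0.00767). The call of Calm3 (0.0573 without V897) ended when single females were left out, with the largest adjusted p given here. Rises and falls numbered 5 and 1 without V841, 6 and 1 without V842 or V896, 4 and 1 without V897 and 6 and 2 without V836 or V853.

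Genes for chaperones of the endoplasmic reticulum and the unfolded protein response had 10 rises and 2 falls of 25 tested genes (40% and 8%, against 8.94% and 9.32% of all genes) and a median of 0.26. After Hspa5, the related chaperone Hsp90b1 was at 388 to 1010 CPM (median 735) in cKO and 148 to 336 CPM (median 252) in control eggs, with 1.61 ± 0.15 (SE, adjusted p = 6.30e-04). The egg ranges did not overlap. Calr, a calcium-binding chaperone, rose by 1.70 ± 0.19 (SE, adjusted p = 0.00137), the disulfide isomerase P4hb by 0.83 ± 0.10 (SE, adjusted p = 0.00194), Atf4, a transcription factor of the stress response, by 1.94 ± 0.22 (SE, adjusted p = 0.00146), and its target Ddit3 by 2.01 ± 0.38 (SE, adjusted p = 0.00767). Ppp1r15a and Dnajc3, which act in the same response, were lower at −0.52 (adjusted p = 0.0378) and −0.40 (adjusted p = 0.0291). The calls of Ppp1r15a (0.109 without V841) and Dnajc3 (0.108 without V897) ended when single females were left out, with the largest adjusted p given here. In other fits, rises and falls numbered 9 and 1 without V841 or V896, 9 and 0 without V842, 8 and 0 without V897 or V853, 11 and 1 without V836 and 11 and 0 with library totals. Before maturation the medians were 0.20 at GV and 0.41 at GV3h, and Hspa5 stood at 0.79 and 1.31. Cytosolic heat shock genes had 1 rise and 3 falls of 25 (4% and 12%, against 8.94% and 9.32% of all genes), with 1 and 2 without V841, V842 or V896, 1 and 3 without V897, 2 and 3 without V836, 2 and 2 without V853 and 3 and 2 with library totals. Hsp90aa1 had a log2 fold change of −0.97 ± 0.12 (SE, adjusted p = 0.00162) and Hsp90ab1 of −0.95 ± 0.17 (SE, adjusted p = 0.00641).

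Of 35 nuclear-encoded complex I subunits of the respiratory chain 12 rose and 0 fell (34.3% and 0%, against 8.94% and 9.32% of all genes), 29 had a positive log2 fold change, and the median was 0.81, against 0.02 for all genes. Ndufb3 was at 15.2 to 58.8 CPM (median 35.9) in cKO and 3.57 to 7.97 CPM (median 6.05) in control eggs, with 2.63 ± 0.31 (SE, adjusted p = 0.00158), and its egg ranges did not overlap. Ndufa2 changed by 2.20 ± 0.23 (SE, adjusted p = 9.14e-04) and Ndufs7 by 2.39 (adjusted p = 0.0101), while Ndufa10, the subunit with the highest CPM, was at 0.04 (adjusted p = 0.877). In the other complexes and ATP synthase 9 of 41 rose and 0 fell (22% and 0%, against 8.94% and 9.32% of all genes), with a median of 0.52. Cox7b, of complex IV, rose by 2.43 ± 0.29 (SE, adjusted p = 0.00164) and Cox6a1 by 2.03 ± 0.30 (SE, adjusted p = 0.00304). Rises and falls of complex I genes numbered 8 and 0 without V841, V842 or V897, 12 and 0 without V836, 9 and 0 without V853 and 9 and 1 without V896, with 14 and 1 by the DESeq2 Wald test. Those of the other complexes numbered 5 and 0 without V841 or V897, 3 and 0 without V842 or V896, 11 and 0 without V836 and 4 and 0 without V853, with 11 and 2 by the DESeq2 Wald test.

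Other libraries gave other values. The complex I median was 0.00 at GV, 0.38 at GV3h and −0.72 in RiboMinus MII eggs, and Ndufb3 stood at −0.28, 0.30 and −0.93. Its stage difference was 2.64 (adjusted p = 9.87e-04). Transcripts of the mitochondrial genome itself had 0 rises and 2 falls of 14 tested (0% and 14.3%, against 8.94% and 9.32% of all genes), with 1 and 1 without V841, 0 and 1 without V842, V853 or V896, 0 and 2 without V897 or V836 and 0 and 1 with library totals. The falls were the ribosomal RNA mt-Rnr2, at −1.22 ± 0.13 (SE, adjusted p = 0.00105), and the complex III gene mt-Cytb, at −0.63 (adjusted p = 0.0273). The call of mt-Cytb (0.0907 without V842) ended when single females were left out, with the largest adjusted p given here. As a share of all counts mitochondrial genes held 0.837% ± 0.187 in cKO and 0.932% ± 0.103 in control females (SD, n = 3 each, exact permutation p = 0.4). The egg medians had the opposite order, at 1.01% over 15 cKO eggs and 0.905% over 8 control eggs.

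Cytosolic ribosomal protein genes had a median of 0.63, with 8 rises and 1 fall of 60 tested (13.3% and 1.67%, against 8.94% and 9.32% of all genes). The share called in either direction was 15%, against 18.3% of all genes. Rps2 rose by 1.55 ± 0.16 (SE, adjusted p = 7.78e-04), Rpl34 by 1.61 ± 0.21 (SE, adjusted p = 0.00199) and Rps3 by 2.21 ± 0.33 (SE, adjusted p = 0.00341), and Rpl17 fell by 1.44 ± 0.24 on the log2 scale (SE, adjusted p = 0.00496). Their summed share was 0.0864% ± 0.00501 of counts in cKO and 0.0683% ± 0.00597 in control females (SD, n = 3 each, exact permutation p = 0.1, 0.175 after adjustment). Many of these genes have processed pseudogenes, and how reads shared with them were counted is not given in the sources used here. The median was 0.17 at GV, 0.59 at GV3h and −0.77 in RiboMinus MII eggs. Refits gave rises and falls of 6 and 1 without V841 or V853, 4 and 1 without V842, 5 and 1 without V897, 10 and 1 without V836, 7 and 1 without V896 and 12 and 1 with library totals.

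The proteasome, which the egg uses to leave each meiotic division, changed in both directions, with 7 rises and 6 falls of 42 tested genes (16.7% and 14.3%, against 8.94% and 9.32% of all genes). Among all genes of at least 5 log2 CPM 10.4% rose and 17.9% fell. Rises and falls numbered 7 and 4 without V841 or V853, 6 and 4 without V842 or V897, 8 and 4 without V836, 7 and 7 without V896 and 8 and 4 with library totals. Psmd5, an assembly chaperone, rose by 1.24 ± 0.16 (SE, adjusted p = 0.00212), the core subunit Psma5 by 1.17 ± 0.14 (SE, adjusted p = 0.00171) and Psma2, the member with the highest CPM, by 0.65 ± 0.11 (SE, adjusted p = 0.0046). Psmd9, another assembly factor, had a log2 fold change of −1.27 ± 0.16 (SE, adjusted p = 0.00172), the core subunit Psmb3 of −1.18 ± 0.23 (SE, adjusted p = 0.00833) and the base ATPase Psmc1 of −1.08 ± 0.21 (SE, adjusted p = 0.00818). Stage differences were called for Psma5 (1.83), Psmd5 (1.15), Psma2 (0.93), Psmd9 (−1.42) and Psmb3 (−1.67). In the list of 42 genes 9 were more positive and 3 more negative at MII, against 5.29% and 3.12% of all genes tested for it.

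Cell cycle regulators were mixed as well. Among 22 M-phase kinases and phosphatases 3 rose and 2 fell (13.6% and 9.09%, against 8.94% and 9.32% of all genes), with 2 and 0 without V841, 1 and 0 without V842, 3 and 0 without V897, 3 and 1 without V836, 2 and 1 without V853, 3 and 2 without V896 and 3 and 1 with library totals. Wee2, the oocyte kinase that restrains CDK1, was at 0.18 (adjusted p = 0.385). Cdc25b, the phosphatase that opposes it, was higher at 1.79 (adjusted p = 0.0162), Ensa, an inhibitor of the phosphatase PP2A, rose by 1.22 ± 0.26 (SE, adjusted p = 0.0128), and Plk1, a mitotic and meiotic kinase, was lower at −0.63 (adjusted p = 0.0248). Mapk3, the ERK1 kinase of the pathway that holds the egg at MII, lay at 40.8 to 205 CPM (median 119.8) in cKO and 14.6 to 54.6 CPM (median 29.7) in control eggs, with 2.04 ± 0.31 (SE, adjusted p = 0.00343). Mapk3 was lower in cKO oocytes at GV (−1.21) and GV3h (−1.12), and its stage difference of 3.21 was called (adjusted p = 6.05e-05). Mos, the kinase at the head of that pathway, was at −0.23 (adjusted p = 0.361). The calls of Cdc25b (0.0583 without V842) and Plk1 (0.0896 without V841) ended when single females were left out, with the largest adjusted p given here.

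The anaphase-promoting complex and its control had 4 rises and 2 falls of 21 tested (19% and 9.52%, against 8.94% and 9.32% of all genes). In other fits, rises and falls numbered 4 and 1 without V841, 3 and 0 without V842 or V897, 3 and 2 without V836 or V896, 3 and 1 without V853 and 7 and 2 with library totals. Fzr1, the coactivator that keeps GV oocytes arrested, rose by 1.78 ± 0.27 (SE, adjusted p = 0.00364), Ube2c, a ubiquitin-conjugating partner, by 1.40 ± 0.20 (SE, adjusted p = 0.00297), and Fbxo5, an inhibitor of the complex, was lower at −0.53 (adjusted p = 0.0154). Of 24 spindle checkpoint and Aurora kinase genes 5 rose and 4 fell (20.8% and 16.7%, against 8.94% and 9.32% of all genes). Refits gave rises and falls of 4 and 2 without V841, V897 or V853, 5 and 2 without V842 or V896, 6 and 5 without V836 and 6 and 2 with library totals. Within the chromosomal passenger complex Aurkb and Birc5 rose by 1.48 ± 0.26 (SE, adjusted p = 0.00608) and 1.39 ± 0.21 (SE, adjusted p = 0.00364), and Cdca8 fell by 0.76 ± 0.11 on the log2 scale (SE, adjusted p = 0.00271). Ttk, the checkpoint kinase also known as MPS1, was at 103 to 207 CPM (median 138) in cKO and 238 to 339 CPM (median 255) in control eggs, a log2 fold change of −0.99 ± 0.14 (SE, adjusted p = 0.0025). At GV and GV3h Ttk stood at −0.98 and −1.31. Prc1, a midzone spindle protein gene, fell by 0.77 ± 0.11 on the log2 scale (SE, adjusted p = 0.00271), and the condensin gene Ncaph rose by 0.86 ± 0.15 (SE, adjusted p = 0.00531). The call of Fbxo5 (0.0705 without V897) ended when single females were left out, with the largest adjusted p given here.

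The pathway that holds GV oocytes in prophase through cAMP had 0 rises and 4 falls of 14 tested (0% and 28.6%, against 8.94% and 9.32% of all genes). Among all genes of at least 5 log2 CPM 17.9% fell. Rgs2, a regulator of G-protein signalling, was at 563 to 769.5 CPM (median 658) in cKO and 1020 to 1362 CPM (median 1172) in control eggs, with −0.82 ± 0.11 (SE, adjusted p = 0.00199), and the ranges did not overlap. Gpr3, the receptor that raises cAMP in the oocyte, fell by 0.75 ± 0.15 on the log2 scale (SE, adjusted p = 0.0111), the protein kinase A subunit gene Prkar2b was lower at −0.82 (adjusted p = 0.0152), and the phosphodiesterase gene Pde4d at −1.21 (adjusted p = 0.035). The calls of Prkar2b (0.062 without V842) and Pde4d (0.118 without V842) ended when single females were left out, with the largest adjusted p given here. Falls numbered 3, 2 and 3 without cKO females V841, V842 and V897 and 4, 3 and 3 without control females V836, V853 and V896. With V896 and V897 both left out 1 fall was called. Of 10 immediate early genes Fosb at −2.78 ± 0.44 (SE, adjusted p = 0.0038) and Dusp1 at −1.46 ± 0.26 (SE, adjusted p = 0.00622) fell and 0 rose (20% lower, against 9.32% of all genes), with 1 rise without V836 and 3 falls without V896.

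Maternal chromatin factors had 6 rises and 3 falls of 28 tested (21.4% and 10.7%, against 8.94% and 9.32% of all genes). Rises and falls numbered 4 and 2 without V841, 4 and 1 without V842, V897 or V896, 5 and 2 without V836, 3 and 1 without V853 and 8 and 1 with library totals. Dnmt1, the maintenance DNA methyltransferase, was at 1391 to 2160 CPM (median 1667) in cKO and 449 to 1091 CPM (median 589) in control eggs, with 1.31 ± 0.18 (SE, adjusted p = 0.0025), while Dnmt3a, the methyltransferase that sets new marks in growing oocytes, fell by 0.78 ± 0.12 on the log2 scale (SE, adjusted p = 0.00341). Nasp, a histone chaperone, rose by 1.19 ± 0.13 (SE, adjusted p = 9.95e-04), and H1foo, the oocyte linker histone, was at −0.18 (adjusted p = 0.365). Dnmt1 and Nasp had stage differences of 1.70 and 1.07 (adjusted p = 0.00202 and 7.23e-04). In the list of oocyte transcription and growth factors 5 rose and 4 fell of 23 (21.7% and 17.4%, against 8.94% and 9.32% of all genes), with 5 and 2 without V841, V842 or V896 and 5 and 3 without V897, V836 or V853. Kit, the receptor for the granulosa cell ligand KITL, fell by 0.86 ± 0.14 on the log2 scale (SE, adjusted p = 0.00457), and Gdf9, an oocyte growth factor, was at −0.14 (adjusted p = 0.496).

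Transcripts that normally carry no poly(A) tail were rare in these libraries. Of 67 replication-dependent histone genes 14 passed the filter on low counts and 4 rose (28.6%, against 8.94% of all genes). Of 147 snoRNA genes 3 passed and 1 rose (33.3%). Without V842, 2 histone genes rose. Genes that passed only through cKO counts had to differ, so these counts describe the libraries and no more. Hist1h1e, a linker histone gene, was at 5.12 to 12.1 CPM (median 9.13) in cKO eggs, and the control eggs held 3 counts in all, in 1 egg, a ratio of 192 (95% counting interval 65.6 to 933). Snord118, which guides ribosomal RNA processing, had counts in 13 of 15 cKO eggs and 0 of 8 control eggs, at least 16.2-fold above a floor of 3 counts over all controls. The summed share of histone genes was 0.0122% ± 0.00206 in cKO and 0.00620% ± 0.000912 in control females (SD, n = 3 each, exact permutation p = 0.1, 0.175 after adjustment). Histone genes are near-identical copies, so reads may be split among them. Host genes of snoRNAs had positive values for all 11 tested, with a median of 0.95: Snhg1 and Gas5 were called (18.2%, against 8.94% of all genes, and 4 genes with library totals), at 2.31 ± 0.44 (SE, adjusted p = 0.00798) and 1.44 ± 0.22 (SE, adjusted p = 0.00336). With V896 and V897 both left out 0 host genes were called. The medians of the host genes at GV and GV3h were 0.94 and 1.26.

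Of 40 Rab GTPases 4 rose and 3 fell (17.5% called, against 18.3% of all genes), with rises and falls of 3 and 2 without V841, 2 and 2 without V842 or V897, 4 and 3 without V836, 3 and 3 without V853 and 5 and 3 without V896. Of 35 early endosome and ESCRT genes 4 rose and 4 fell (22.9% called), with 4 and 3 without V841, 3 and 2 without V842, 4 and 2 without V897 or V853, 4 and 5 without V836 and 4 and 4 without V896. Snx3, of endosomal sorting, rose by 1.42 ± 0.23 (SE, adjusted p = 0.00429) and Pikfyve, the kinase that makes the lipid of late endosomes, by 1.11 ± 0.20 (SE, adjusted p = 0.00695). Eea1, a tether of early endosomes, was at 90.2 to 160.3 CPM (median 125) in cKO and 196 to 291 CPM (median 241) in control eggs, with −0.93 ± 0.17 (SE, adjusted p = 0.00731), and Rab8b fell by 1.28 ± 0.21 on the log2 scale (SE, adjusted p = 0.00429). Rab5a and Rab5b, named here because of earlier results, were at 0.82 (adjusted p = 0.11) and 1.29 (adjusted p = 0.0826). Among genes of metabolism Ldhb, a lactate dehydrogenase, was at 1153 to 3596 CPM (median 2608) in cKO and 473 to 1197 CPM (median 824) in control eggs, with 1.52 ± 0.24 (SE, adjusted p = 0.00366), and the mitochondrial peroxidase Prdx3 rose by 2.40 ± 0.41 (SE, adjusted p = 0.00543). Nfe2l2, the NRF2 regulator of antioxidant genes, fell by 1.47 ± 0.22 on the log2 scale (SE, adjusted p = 0.00306). Of 22 redox genes 2 rose and 3 fell (9.09% and 13.6%, against 8.94% and 9.32% of all genes). Other peroxidase genes of the Prdx3 family were among the falls. Of 24 glucose and pyruvate genes 4 rose and 1 fell (16.7% and 4.17%). Small RNA pathways had 0 rises and 1 fall of 23 (4.35% called, against 18.3% of all genes), Ago3 at −0.76 ± 0.15 (SE, adjusted p = 0.00865), but 5 rises and 1 fall without control female V836. Dicer1 was at −0.04 (adjusted p = 0.875).

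**Figure D4:**
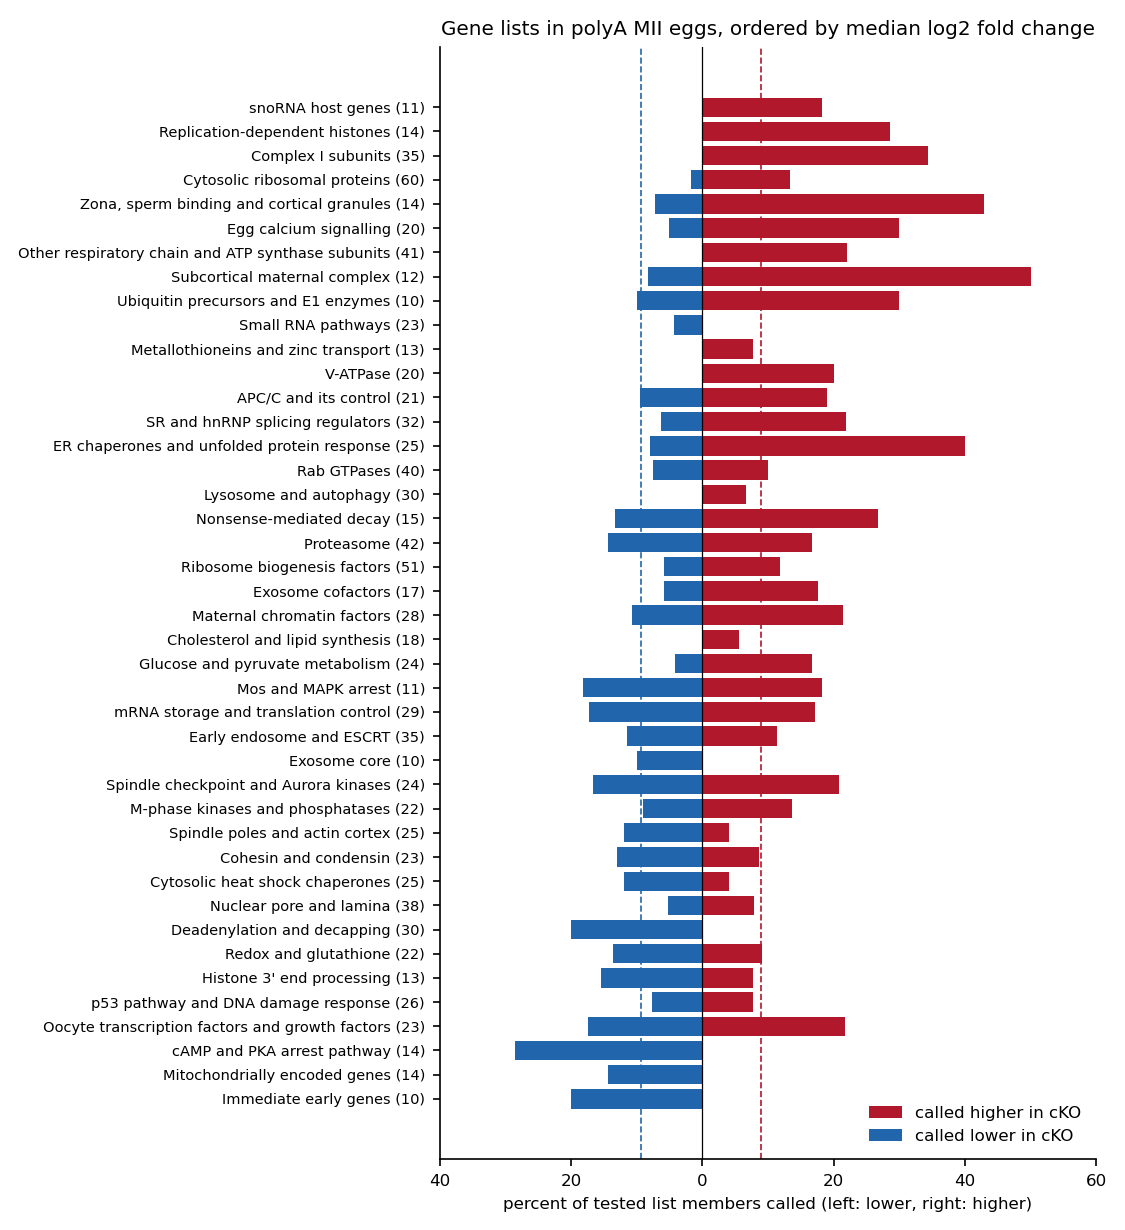
Percent of tested members called lower (blue, left) and higher (red, right) in polyA MII cKO eggs for 42 gene lists with at least 10 tested members, whose number is in brackets, ordered by median log2 fold change. Dashed lines mark the share of all tested genes, 9.32% lower and 8.94% higher; the subcortical maternal complex, zona, chaperone and complex I lists extend furthest to the right.

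Transcript length was set beside the calls. One annotated transcript per protein-coding gene (GENCODE M21) was used for 11511 tested genes with a 3′ UTR, the stretch after the coding sequence. The median transcript was 2438 bases for 1081 called rises, 3596 for 1140 called falls and 3031 for all, and the median 3′ UTR 776, 1332 and 991 bases. Genes were cut into 5 bins of equal size by length. In the bin of the shortest transcripts (up to 1731 bases) 13.7% rose and 7.59% fell, and in the bin of the longest (from 5023 bases) 5.43% rose and 14.3% fell. The median log2 fold change ran from 0.20 in the shortest to −0.12 in the longest bin. At GV the same bins had medians of −0.02 and −0.11, at GV3h 0.15 and −0.22, and in RiboMinus MII eggs −0.31 and 0.13. Average level moved with length, from 2.97 to 4.83 log2 CPM over the bins, and its part in the trend was not tested.

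**Figure D5:**
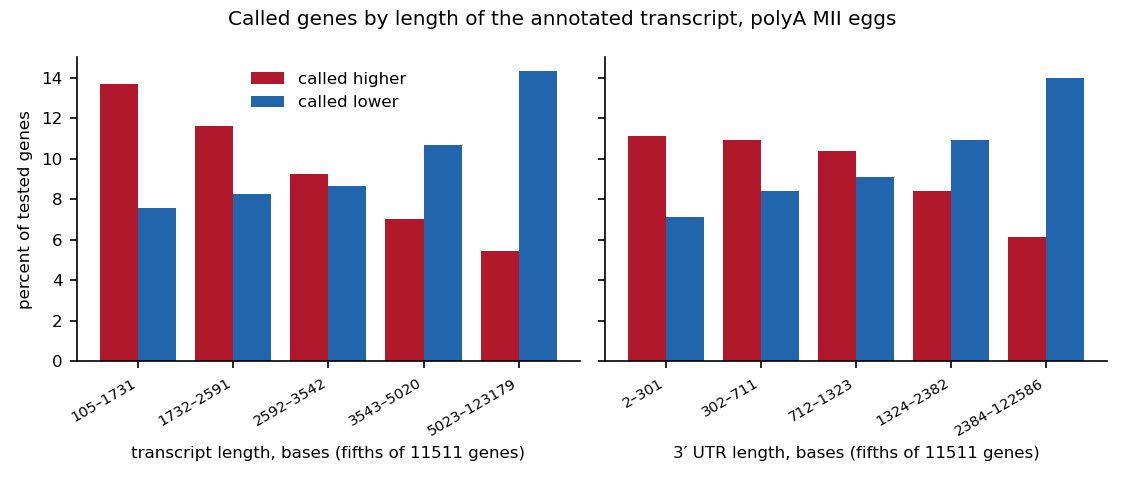
Percent of tested protein-coding genes called higher (red) and lower (blue) in polyA MII cKO eggs, in 5 bins of the annotated transcript length (left) and 3′ UTR length (right) in bases. From the shortest to the longest transcripts the share of rises goes from 13.7% to 5.43% and the share of falls from 7.59% to 14.3%.

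Sequence elements of tail control were counted in the same transcripts. The cytoplasmic polyadenylation element, searched on the transcript strand as TTTTAT or TTTTAAT in the last 100 bases, was present in 16.4% of called rises, 28.8% of called falls and 19.7% of all 11511 genes. Falls lay at higher CPM than other genes, and at 5 log2 CPM or more the shares were 20.5%, 29.8% and 25.4%. The Pumilio motif TGTANATA in the 3′ UTR was present in 21.6%, 34.1% and 25.3%, or in 26.9%, 36.6% and 30.8% at 5 log2 CPM or more, and longer 3′ UTRs hold more matches by length alone. The cleavage signal AATAAA in the last 40 bases was found in 64.2%, 63.6% and 61.3%, or in 66.9%, 64.1% and 64.6% at 5 log2 CPM or more. A match describes the letters and says nothing of binding.

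The windows below hold the element nearest the transcript end in the 3 called falls and the 3 called rises of highest CPM among the genes named by rule that carry one, with the element in capitals, 5′ to 3′ on the transcript strand.
Btg4: gataaatccctTTTTATgtctttttaaaa
Mdm4: ttttaatgcggTTTTATtgtgtttttgtg
Obox2: aggtcttaattTTTTATtgttagagtata
Dnmt1: acttgatgtagTTTTATatgttgtaatat
Rbm7: tactatgttccTTTTAATatattaaatac
Tm2d1: tcacttgtcatTTTTATttgtgaaaaata
They lie in the 3′ UTR, within the last 100 bases of the annotated transcript, at chr9:51119798-51119826 (plus strand), chr1:132986242-132986270 (minus), chr7:15398479-15398507 (plus), chr9:20907239-20907267 (minus), chr9:48488709-48488737 (minus) and chr4:98355389-98355417 (minus) of GRCm38. By this choice the set holds the falls of Btg4, Mdm4 at −0.48 (adjusted p = 0.0137), whose protein restrains p53, and the homeobox gene Obox2 at −0.55 (adjusted p = 0.0163). It also holds, by the same choice, the rises of Dnmt1, Rbm7 and Tm2d1. The calls of Mdm4 (0.0514 without V842) and Obox2 (0.0547 without V853) ended when single females were left out, with the largest adjusted p given here. Obox2 belongs to a family of near-identical genes, so its count is uncertain.

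Gene classes differed in their shares of calls, against 8.94% higher and 9.32% lower among all genes. Protein-coding genes held 1089 rises (9.36%) and 1152 falls (9.91%) of 11629, long intergenic RNAs 55 (8.61%) and 47 (7.36%) of 639, and antisense genes 28 (4.67%) and 22 (3.67%) of 599. RNAs transcribed from shared promoters had 8 rises (16%) and 0 falls of 50, with a median log2 fold change of 0.11. The part of exosome decay in these shares was not tested. Transcribed unprocessed pseudogenes had 2 rises (4.65%) and 7 falls (16.3%) of 43. Within 5 Mb of Exosc10 on chromosome 4, 16 of 92 other genes (17.4%) were called, against 18.3% of all.

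Females of 1 genotype also differed from each other. With eggs as replicates within a female, edgeR called 68 of 14784 genes (0.46%) among the 3 cKO females and 25 of 12958 (0.193%) among the 3 control females, with 1344 and 838 at an unadjusted p under 0.05, and 7 genes were in both sets. Of the 86 genes in either set 74 were tested between genotypes and 11 (14.9%) called, against 18.3% of all genes. Chromosome 1 held 19 of the 68 and 8 of the 25, against 6.48% and 6.52% of tested genes. Pnpla3, a lipid droplet protein gene, was at 247 to 314 CPM in V836, 88.6 to 101 CPM in V853 and 0.262 to 0.451 CPM in V896. Pnpla3 was picked out after its values were seen.

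Mt1, a metallothionein gene that binds zinc and rises under metal or stress signals, differed among the control females. Its level was 17.5 to 38.1 CPM (median 28.4) in cKO eggs, while the 4 control eggs of V853 were at 12.9 to 17.8 CPM and those of V836 and V896 at up to 0.137 CPM. The log2 fold change was 2.38 (adjusted p = 0.208), not called at MII. At GV and GV3h the values were 8.04 and 9.37, the stage difference was −6.41 (adjusted p = 0.00617), and RiboMinus MII eggs gave 8.49. Of 13 tested metallothionein and zinc transport genes 1 rose (7.69%, against 8.94% of all genes), the zinc transporter gene Slc30a5 at 0.62 ± 0.12 (SE, adjusted p = 0.01), and 2 rose without V836 or without V853.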

How the data were processed

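PolyA RNA of single MII eggs was bound to oligo(dT) beads, reverse transcribed, amplified and made into Nextera libraries, per the labels' protocols. The deposited values are raw counts per gene, which the authors made with HTSeq 0.9.1 after cutadapt 2.5 and STAR 2.7.2a on mm10, per the submitters' processing notes, which also name DESeq2 1.24.0. The annotation release, the strand setting and any removal of duplicate reads are not given in the sources used here. Gene names and coordinates came from GENCODE M21 (GRCm38), which held 55394 of 55573 gene IDs. Lines that name no gene (no feature, 5.86% to 6.77% of counts in MII libraries) were left out.

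Counts were summed per female, because the eggs of 1 female are not separate samples of a genotype. Genes were kept by filterByExpr, scaled by TMM and tested with edgeR 4.0.16 (quasi-likelihood F test, two-sided, Benjamini-Hochberg adjustment over all genes tested, called under 0.05). The fit was checked on simulated counts that varied less between females than these data, with changes set only in well-counted genes. Fold changes are log2 of cKO over control with their standard error (SE). CPM is not corrected for transcript length. Alternatives were each egg as a replicate, limma 3.58.1 voom, DESeq2 1.42.0, other scalings and filters, and leaving out each MII female. Named genes are Exosc10, the 12 largest rises and falls and 3 clone-named genes per direction among called genes of at least 5 log2 CPM whose egg ranges did not overlap, and per gene list up to 3 called rises, 3 called falls and the member of highest CPM. Some genes that this rule names are not reported here. The gene lists and this rule were chosen with earlier results of these data known. Intervals and floors cover counting error only.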

Additional observations from a re-analysis of the deposited data

Results flagged for a closer look

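In 18 of 140 sets of 8 control eggs the highest egg stood further from its neighbour than Dixon's 95% critical value allows. Chance alone brings this about in about 1 of 20 sets of independent, normally distributed values. All sets here share the same 8 eggs, so the rates cannot be compared. For Hist1h1e and Ovgp1, with a control median of 0 CPM and counts in 1 control egg, the flag was fixed in advance. Egg 2 of female V836 had the highest share of counts on ribosomal protein genes, 0.0853%. Egg 1 of V836 was the high one for Ddost (50.84 CPM), Ttk (338.6 CPM), Dnmt1 (1091 CPM), Hist1h1e (0.4122 CPM) and Calr (52.08 CPM). Egg 2 of V836 was the high one for Nsmce1 (278.4 CPM), Plk1 (315.6 CPM), Birc5 (136 CPM), Zp3 (272.2 CPM) and Psmb3 (44.25 CPM). Egg 1 of V853 was the high one for Ovgp1 (1.64 CPM) and Cox6a1 (40.53 CPM). Egg 2 of V853 was the high one for Gm6201 (249.9 CPM). Egg 3 of V853 was the high one for Smg5 (10.13 CPM). Egg 4 of V853 was the high one for Gas5 (32.5 CPM). Egg 2 of V896 was the high one for Pikfyve (134.1 CPM) and Prkar2b (62.67 CPM).

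The genotype change at MII differed from the mean of the changes at GV and GV3h for 62 genes of the report (edgeR test of the difference on female sums, adjusted p under 0.05), and the values below are these differences on the log2 scale. More positive at MII were, among the largest rises, Uba6 (4.11), Cetn2 (2.87), Cox14 (1.91), Tm2d1 (2.89), Ddost (1.64), Pebp1 (2.29), Calm2 (2.24), Imp3 (1.71), Hspa5 (1.18), E330017A01Rik (3.48), Gm31579 (1.92) and 1110059E24Rik (1.33). Among list members the more positive values were those of Rbm7 (0.86), Ybx2 (1.39), Cpeb1 (1.43), Cdc25b (1.62), Mapk3 (3.21), Ube2c (1.41), Aurkb (1.34), Birc5 (1.48), Ncaph (0.99), Zp2 (1.5), Cd9 (1.38), Zp3 (1.38) and Slc30a5 (1.05). Further positive differences belonged to Khdc3 (2.18), Nlrp14 (1.33), Nlrp5 (1.48), Dnmt1 (1.70), Nasp (1.07), Snx3 (1.62), Atf4 (1.83), Psmd5 (1.15), Psma5 (1.83), Psma2 (0.93), Ndufb3 (2.64), Ndufs7 (2.0) and Cox7b (2.17). The remaining ones were found for Rps3 (1.20), Ldhb (1.67), Prdx3 (2.41), Astl (0.78), Atp2a2 (0.58), Ndufa2 (2.25), Hsp90b1 (1.13), Calr (1.47), Cox6a1 (1.78), Rps2 (0.88) and Rpl34 (1.18). More negative at MII were, among the largest falls, Gpn2 (−1.28), Daw1 (−1.73), Nsmce1 (−1.83), Kcnh3 (−1.84) and Gm15476 (−1.24). Other negative differences were Ddx6 (−2.93), Patl2 (−1.49), Cdca8 (−0.79), Psmd9 (−1.42), Psmb3 (−1.67), mt-Rnr2 (−0.74), mt-Cytb (−0.82) and Mt1 (−6.41).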

How the results depend on the processing

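The 2522 calls at MII became 4727 with each egg as a replicate and 4159 with limma voom and the female as a random effect, fits that count eggs of 1 female as more or less separate. The count was 821 without females V896 and V897, and ranged from 1257 (without V842) to 2514 (without V836) when single females were left out. The 1617 stage differences became 4571 with each egg as a replicate, 2619 with the DESeq2 Wald test and 866 with 2 eggs of each female. They ranged from 997 (without V842) to 1579 (without V836) when single MII females were left out. No GV or GV3h female was left out. Between control females 239 genes were called with no filter on low counts, against 25. The cause of these differences was not tested. The other alternatives moved these counts by less than 1.5 times, among them the fit without egg 2 of V836, which was chosen after seeing the data. Of 2339 values of named genes under alternatives, 2187 stayed on their side of the threshold, 138 lost the call and 14 gained one. With a call in either fit 0 changed sign, and changes of sign in genes uncalled in both fits were not counted. In each alternative 81 of 126 called genes kept their call. Of 752 counts of called list members 234 moved by more than 1.5 times. No paired analysis was possible because each female had 1 genotype and the females compared share no number. With no spike-in counts used, a change of all transcripts together could not be measured.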
